A study of Rattus norvegicus with 9 samples.

Results

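The genes described here encode the enzymes of cholesterol synthesis, the proteins that regulate it and proteins that move cholesterol within or out of cells. They were chosen by name, 27 of the 23480 gene symbols in the count table, and all 27 passed the filter on low counts. Of these, 8 belong to the mevalonate steps, 3 to the steps from squalene to lanosterol, 9 to the steps after lanosterol, 4 are regulators and 3 are transport genes. Polyadenylated RNA of whole skin samples was sequenced. All animals were male rats of the outbred Wistar strain. The young group held 5 animals of 6 months and the old group 4 animals of 24 months. No treatment or genetic change is named for either group, and the labels do not say from which part of the body the skin came.

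Cells make cholesterol from acetyl-CoA through mevalonate, which is turned into activated isoprene units. These are joined into farnesyl pyrophosphate and then squalene, squalene is closed into the ring of lanosterol, and lanosterol is trimmed and rearranged into cholesterol. The genes are switched on together by the transcription factor SREBP-2 (encoded by SREBF2), which SCAP carries from the endoplasmic reticulum to the Golgi when sterols are low and which Insig proteins hold back when sterols are high. In skin, keratinocytes make cholesterol for the lipid layers of the stratum corneum, and sebaceous glands make large amounts of sebum lipid.

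The libraries of old replicates 1 and 3 stood apart in how they were counted. Each of their counts was even, with 0 odd values among 17787 and 17495 symbols above 0, while 51.6 to 51.9% of such values were odd in the other 7 libraries. Why is not stated in the labels. Deposited totals were 17.3 to 20.2 M (M, a count of 1000000) in young and 20.1 to 34.1 M in old samples. With both columns halved, the old totals were 14.7 to 25 M. Relative levels do not change with halving. When the test was repeated on halved counts, 17 members fell and 0 rose, as on the deposited counts, and their median log2 fold change was -0.73. The keratinocyte genes KRT14 and KRT1 and the dermal genes COL1A1 and COL3A1 were detected in all samples.

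Transcripts of the pathway were lower in old skin along most of its length. Of the 27 members, 17 fell, 0 rose and 10 did not pass the test (edgeR quasi-likelihood test, Benjamini-Hochberg adjusted p under 0.05 over 14933 genes). Among all genes tested, 4.41% fell and 9.62% rose, 14% in all. The members' median log2 fold change, old over young, was -0.73, with a range from -1.66 to 0.30, against a median of -0.05 over all genes tested. Scaled by library totals alone, the median of all genes was 0.11 and that of the members -0.54, 1956 genes rose and 312 fell in place of 1437 and 659, and 9 members fell. The groups did not overlap, with old lower, in 16 members, which was the case in 6.51% of all genes, and no member was higher in every old sample than in every young one, against 10% of all genes. The members together took 0.349 to 0.561% of normalized counts in young skin and 0.169 to 0.267% in old skin. In bulk skin, fewer cells of a type and less RNA per cell cannot be told apart.

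**Figure D1:**
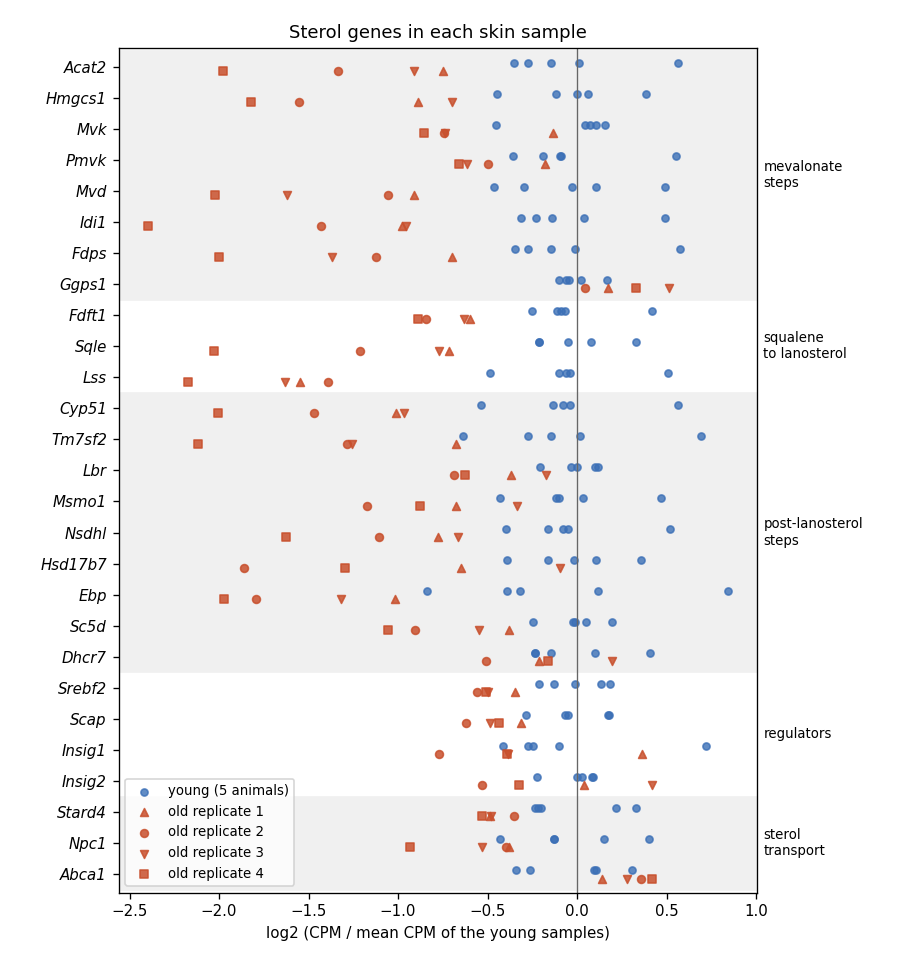
Level of each of the 27 sterol genes in each sample, as log2 of its CPM (normalized counts per M) over the mean CPM of the 5 young samples; rows follow the pathway, blue points are young samples and orange symbols are the 4 old replicates. Old points lie to the left of the young points for most synthesis genes, and old replicate 4 is the lowest old sample in 17 rows.

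Many members shared the same highest or lowest sample of their age. Young replicate 2 had the highest young level in 16 of the 27 members and young replicate 1 the lowest in 15. Old replicate 4 had the lowest old level in 17 members. Old replicates 1 and 3 both stood above old replicates 2 and 4 in 17 members and below both in 1. The libraries with even counts thus lay nearer to the young ones in most members. These orders were counted for the members only, and whether other genes share them was not tested. With old replicates 1 and 3 as the only old samples, 2 members fell (LSS and MVD) and the median was -0.44. With old replicates 2 and 4 alone, 17 fell and the median was -0.95. These were not the same 17 as with all samples, since SREBF2 and SCAP lost their call and MVK and HSD17B7 gained one. Without old replicate 4 the number that fell was 7, without young replicate 4 it was 11, and leaving out any other library gave 12 to 17. The direction of the 17 members that fell did not turn in any of the 25 alternatives. The stricter threshold among these keeps the same fold changes and could not turn a sign. The smallest falls in any alternative were -0.019 for NSDHL and -0.059 for MSMO1.

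The promoters of 5 members are shown because they span the pathway and its regulators and each holds the CCAAT letters. They are the 250 bases before the annotated start, 5' to 3' on the gene's strand, from RefSeq (rat assembly GRCr8). HMGCS1 lies at chr2:53382054-53382303 (plus strand), LSS at chr20:12118231-12118480 (minus strand) and EBP at chrX:16971212-16971461 (plus strand), and all 3 fell. INSIG1 lies at chr4:8057770-8058019 (minus strand) and GGPS1 at chr17:55958500-55958749 (plus strand), and neither passed the test. Capitals mark the letters CCAAT, the core of the box bound by NF-Y, a factor known to act together with SREBP, read on either strand. In these 5 promoters each match is on the other strand, so it is printed as ATTGG.
HMGCS1: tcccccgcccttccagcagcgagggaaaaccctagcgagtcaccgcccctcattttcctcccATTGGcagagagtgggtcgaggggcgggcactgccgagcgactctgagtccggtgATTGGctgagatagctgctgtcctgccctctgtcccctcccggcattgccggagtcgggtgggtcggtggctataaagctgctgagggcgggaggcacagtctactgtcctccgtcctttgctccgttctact
LSS: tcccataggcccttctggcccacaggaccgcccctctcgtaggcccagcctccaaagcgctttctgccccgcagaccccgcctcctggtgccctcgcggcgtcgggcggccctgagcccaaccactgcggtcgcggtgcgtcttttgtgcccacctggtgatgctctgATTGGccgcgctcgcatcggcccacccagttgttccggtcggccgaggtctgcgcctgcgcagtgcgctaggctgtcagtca
EBP: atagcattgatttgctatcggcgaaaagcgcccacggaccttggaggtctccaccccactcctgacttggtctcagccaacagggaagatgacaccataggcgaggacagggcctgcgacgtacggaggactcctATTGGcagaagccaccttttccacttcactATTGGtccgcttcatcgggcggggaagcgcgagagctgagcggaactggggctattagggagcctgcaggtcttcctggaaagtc
INSIG1: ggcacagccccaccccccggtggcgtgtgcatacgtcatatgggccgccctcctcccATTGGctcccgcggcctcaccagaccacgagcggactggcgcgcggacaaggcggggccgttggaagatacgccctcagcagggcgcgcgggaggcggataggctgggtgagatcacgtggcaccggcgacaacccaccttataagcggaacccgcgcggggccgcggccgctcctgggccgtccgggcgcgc
GGPS1: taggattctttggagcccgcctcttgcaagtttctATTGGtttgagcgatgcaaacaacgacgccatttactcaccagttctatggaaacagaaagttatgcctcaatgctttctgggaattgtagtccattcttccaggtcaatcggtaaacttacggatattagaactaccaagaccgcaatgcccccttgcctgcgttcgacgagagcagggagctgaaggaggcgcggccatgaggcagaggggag

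HMGCS1 and EBP hold the CCAAT letters at 2 places each and the other 3 promoters at 1. Windows from 250 bases before to 50 after the start were at hand for 23 of the 27 members. CCAAT or its complement was in 17 of these 23 (73.9%), in 36.4% of the windows of 11615 tested genes and in 37.5% of all 33469 windows. It was there in 12 of the 15 members that fell and in 5 of the 8 that did not pass. At least 2 places were found in 11 of the 23, against 12.7% of tested genes. The GC box letters GGGCGG (either strand, any overlap) were in 19 of 23 members and in 58.5% of tested genes. The letters TCACNCCAC, 1 form of the sterol regulatory element that SREBPs bind, were in 0 of the 23 and in 1.11% of tested genes. Without the last letter, a form chosen after seeing this, they were in 2 members (MSMO1 and SREBF2) and in 3.48% of tested genes. These are matches of letters and do not show binding, and the element's other forms were not searched.

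**Figure D2:**
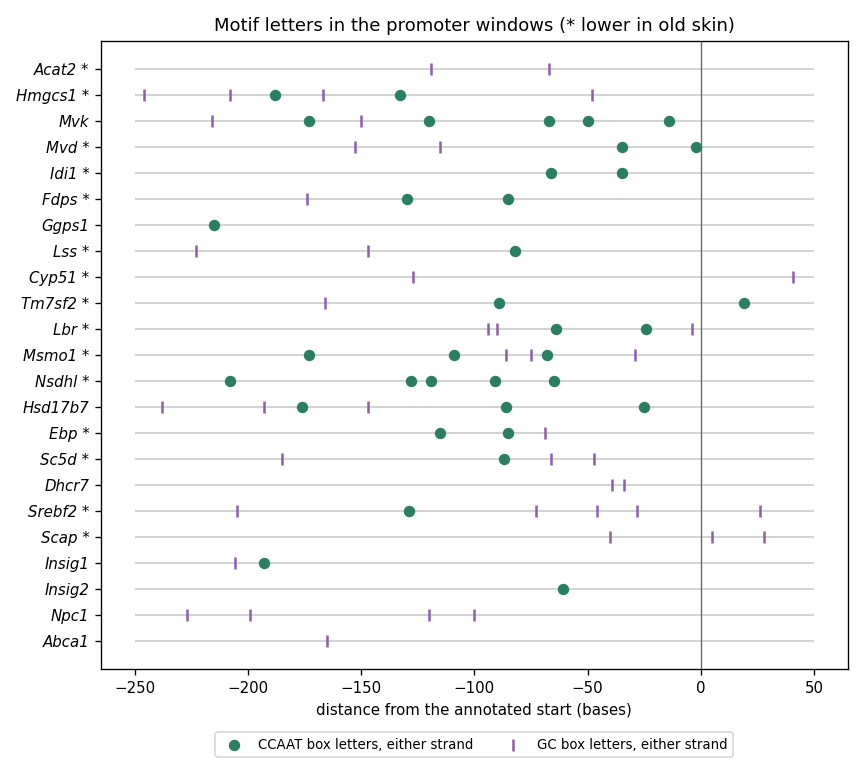
Places of the CCAAT (green points) and GGGCGG (purple ticks) letters, on either strand, along the promoter windows of 23 members, as distance in bases from the annotated start; an asterisk marks the members that were lower in old skin. CCAAT letters are present in 17 of the 23 rows, in 12 of the 15 with an asterisk.

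The first steps make mevalonate and turn it into isoprene units. Of the 8 members here, 5 fell (ACAT2, HMGCS1, MVD, IDI1 and FDPS) and 3 did not pass (MVK, PMVK and GGPS1). HMGCS1, which encodes the cytosolic synthase of HMG-CoA, stood at 711, 1265, 893, 967 and 1010 CPM in young replicates 1 to 5 and at 524, 331, 596 and 274 CPM in old replicates 1 to 4. The lowest young sample was above the highest old one. The fall was 2.25-fold (log2 fold change -1.17 ± 0.26, SE, adjusted p = 0.0178). ACAT2, which encodes the thiolase that joins acetyl-CoA units, stood at 116 to 219 CPM in young and 37.8 to 88.5 CPM in old skin (-1.17 ± 0.27, adjusted p = 0.0207).

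Further along, MVD encodes the decarboxylase that makes the first isoprene unit. Its level was 62.8, 122, 93.2, 84.8 and 70.5 CPM in young and 46.0, 41.6, 28.1 and 21.3 CPM in old skin. No old sample reached the young range, and the log2 fold change was -1.34 ± 0.26 (adjusted p = 0.00979). IDI1, which encodes the isomerase of the isoprene unit, went from 209.6 ± 50.8 CPM (SD, n = 5) to 83.1 ± 32.1 CPM (n = 4), a change of -1.33 ± 0.30 (adjusted p = 0.0167). FDPS, which encodes farnesyl pyrophosphate synthase, went from 434 ± 124 to 186 ± 66.3 CPM (-1.22 ± 0.28, adjusted p = 0.0194). The calls of MVD and IDI1 held when each library was left out in turn. That of ACAT2 was lost without young replicate 4 (adjusted p = 0.0504), that of HMGCS1 without old replicate 4 (0.0532) and that of FDPS without old replicate 3 (0.0504).

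The 2 kinases before MVD did not pass the test, and no test compared their change with that of the other steps. MVK (mevalonate kinase) stood at 51.0, 49.3, 48.1, 47.2 and 33.4 CPM in young and 41.7, 27.3, 27.5 and 25.3 CPM in old skin (-0.59 ± 0.18, adjusted p = 0.0565). Young replicate 5 and old replicate 1 were apart from the rest of their groups and made the groups overlap. PMVK (phosphomevalonate kinase) was at 38.3 to 71.9 and 31.1 to 43.3 CPM (-0.47 ± 0.19, adjusted p = 0.127). GGPS1, which encodes the synthase that extends farnesyl to geranylgeranyl pyrophosphate for the lipid tails of proteins and so leaves the sterol route, was at 17.7 to 21.3 CPM in young and 19.5 to 27.1 CPM in old skin (0.28 ± 0.12, adjusted p = 0.165).

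All 3 genes from squalene to lanosterol fell, with no overlap between the ages. FDFT1, which encodes squalene synthase, the first enzyme of the route committed to sterols, stood at 169, 269, 192, 189 and 186 CPM in young and 109 to 133 CPM in old skin (-0.73 ± 0.15, adjusted p = 0.0131). SQLE, which encodes squalene epoxidase, stood at 143 to 208 and 40.6 to 101 CPM (-1.10 ± 0.26, adjusted p = 0.0204). LSS, which encodes lanosterol synthase, stood at 155, 309.7, 209, 211 and 203 CPM in young and 74.3, 83.1, 70.1 and 48.2 CPM in old skin. Its fall of 3.16-fold (-1.66 ± 0.23, adjusted p = 0.0021) had the largest fold change and the smallest adjusted p of the 27. In LSS the lowest young sample (155 CPM) was well above the highest old one (83.1 CPM). The calls of LSS and SQLE held without any 1 library, and that of FDFT1 was lost without old replicate 4 (adjusted p = 0.0554).

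After lanosterol, 7 of 9 members fell (CYP51, TM7SF2, LBR, MSMO1, NSDHL, EBP and SC5D) and HSD17B7 and DHCR7 did not pass. CYP51, which encodes the demethylase that acts on lanosterol first, stood at 324, 697, 447, 459 and 430.0 CPM in young and 234, 170.0, 241 and 117 CPM in old skin (-1.31 ± 0.27, adjusted p = 0.0124). EBP, which encodes the isomerase that moves a double bond in the sterol ring, stood at 53.5, 171, 76.7, 104 and 72.9 CPM in young and 47.3, 27.6, 38.3 and 24.3 CPM in old skin (-1.47 ± 0.35, adjusted p = 0.0204). Young samples differed more than 3-fold in EBP, yet none fell within the old range. The call of CYP51 held without any 1 library and that of EBP was lost without old replicate 4 (adjusted p = 0.0684).

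Removal of the next methyl groups from the ring is the work of the products of MSMO1, NSDHL and HSD17B7. NSDHL went from 103 ± 26.4 to 51.6 ± 14.1 CPM (1.99-fold lower, adjusted p = 0.0204). MSMO1 stood at 95.8 to 179 and 57.4 to 102 CPM (-0.73 ± 0.21, adjusted p = 0.0473), with old replicate 3 inside the young range. HSD17B7 stood at 43.1, 72.4, 50.6, 61.0 and 55.9 CPM in young and 36.2, 15.6, 53.0 and 23.1 CPM in old skin (-0.82 ± 0.32, adjusted p = 0.119). Its old samples spread wider, relative to their level, than those of the other members of this step, and old replicate 3 was again at young levels. The call of NSDHL was lost without old replicate 4 (adjusted p = 0.0539). That of MSMO1 was kept only without young replicate 1 or old replicate 3 (adjusted p up to 0.161 in the rest).

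TM7SF2 and LBR encode the sterol C14 reductases, and the LBR product also anchors chromatin at the nuclear envelope. TM7SF2 stood at 19.7, 49.6, 27.7, 31.1 and 25.3 CPM in young and 19.2, 12.6, 12.8 and 7.07 CPM in old skin (-1.24 ± 0.33, adjusted p = 0.0319). Its highest old sample lay just under its lowest young one. LBR stood at 37.5 to 47.0 and 26.9 to 38.5 CPM and was lower by less (-0.45 ± 0.13, adjusted p = 0.0439), with old replicate 3 inside the young range. Both calls were fragile. That of TM7SF2 was kept when young replicate 1, young replicate 5 or old replicate 1 was left out, and in no other such fit (adjusted p up to 0.0785). That of LBR was kept when young replicate 5 or old replicate 3 was left out, and in no other (up to 0.189).

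At the end of the route the members parted. SC5D, which encodes the desaturase that makes 7-dehydrocholesterol, stood at 63.8 to 86.7 CPM in young and 36.4 to 58.1 CPM in old skin (-0.70 ± 0.15, adjusted p = 0.0155, and 0.0519 without old replicate 4). DHCR7, which encodes the reductase that turns 7-dehydrocholesterol into cholesterol, stood at 80.3, 85.3, 125, 101 and 80.1 CPM in young and 81.3, 66.2, 108 and 84.5 CPM in old skin. Its groups lay over each other (-0.15 ± 0.18, adjusted p = 0.607), and the sign turned with library totals alone as the scaling (0.015). No test compared the change of SC5D with that of DHCR7.

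**Figure D3:**
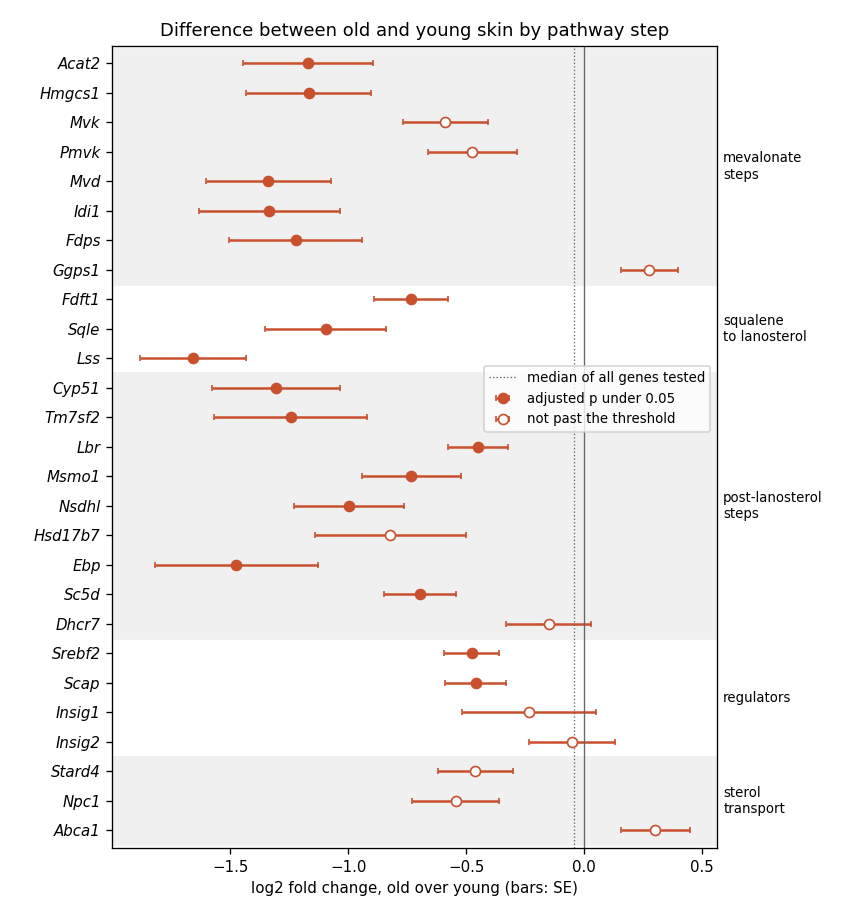
Log2 fold change, old over young, of the 27 members in pathway order, with bars of 1 SE; filled points passed the edgeR test and open points did not, and the dotted line is the median of all 14933 genes tested (-0.05). The points run from -1.66 for LSS to 0.30 for ABCA1, and the filled ones are all to the left of 0.

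Of the 4 regulators, SREBF2 and SCAP fell and the Insig genes did not pass. SREBF2 stood at 147, 136, 168, 163 and 128 CPM in young and 117, 101, 105 and 104 CPM in old skin. The old samples were close together and below every young one (-0.48 ± 0.12, adjusted p = 0.0234). SCAP stood at 136 to 188 and 108 to 134 CPM (-0.46 ± 0.13, adjusted p = 0.0414). Both changes were smaller than 1.5-fold and rested on most of the libraries. Leaving out young replicate 1, 3 or 4, or old replicate 3 or 4, ended the call of SREBF2 (adjusted p up to 0.1), and leaving out any library other than young replicate 1 ended that of SCAP (up to 0.135).

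INSIG1, whose gene is itself a known target of SREBP-2, stood at 80.9, 45.8, 40.7, 41.5 and 36.9 CPM in young and 63.3, 28.8, 37.6 and 37.4 CPM in old skin. Replicate 1 was the highest in both groups, which overlapped (-0.23 ± 0.28, adjusted p = 0.616), and the sign turned without young replicate 1 (0.059). INSIG2, whose transcription is not driven by SREBP-2, stood at 61.0 to 75.8 CPM in young and 49.3 to 95.4 CPM in old skin (-0.05 ± 0.18, adjusted p = 0.871). Its sign turned under library-total scaling (0.13), and also when young replicate 1, old replicate 2 or old replicate 4 was left out (0.013, 0.076 and 0.078).

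None of the 3 transport genes passed the test. STARD4, which encodes a cytosolic carrier of cholesterol, stood at 10.9 to 16.2 CPM in young and 9.19, 10.1, 9.24 and 8.93 CPM in old skin. Every old sample was below every young one, by a small margin (-0.46 ± 0.16, adjusted p = 0.0844). NPC1, which encodes the protein that lets cholesterol leave lysosomes, stood at 77.5 to 138 and 54.7 to 80.4 CPM (-0.54 ± 0.18, adjusted p = 0.0788). ABCA1, which encodes the pump that exports cholesterol to apolipoproteins and is switched on by the oxysterol receptor LXR, stood at 73.7, 69.7, 94.9, 94.3 and 109 CPM in young and 97.2, 113, 107 and 118 CPM in old skin (0.30 ± 0.15, adjusted p = 0.203).

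A ratio of 2 genes within a library does not depend on the scaling between libraries. For 5 pairs of genes, chosen for related roles, the log2 ratio was compared between the ages with a two-sided exact permutation test over the 126 ways to assign 5 and 4 labels, whose smallest p is 0.00794. The ratio of FDPS to GGPS1 was lower in old skin by 1.52 on the log2 scale (2.88-fold; 4.48 ± 0.43 in young, SD, n = 5, and 2.95 ± 0.67 in old, n = 4; exact permutation p = 0.00794, adjusted over the 6 pairs computed 0.0238). The groups were separate in FDPS to GGPS1, and the mean of GGPS1 was not lower in old skin.

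The other 4 ratios did not pass. TM7SF2 to LBR differed by -0.80 (two-sided exact permutation p = 0.0635, adjusted 0.0857). ACAT2 to ACAT1, the mitochondrial thiolase, differed by -0.69 (exact permutation p = 0.0635, adjusted 0.0857). SREBF2 to SREBF1 differed by -0.59 (exact permutation p = 0.0714, adjusted 0.0857). INSIG1 to INSIG2 differed by -0.14 (exact permutation p = 0.651, adjusted 0.651). The groups overlapped in all 4 pairs.

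**Figure D4:**
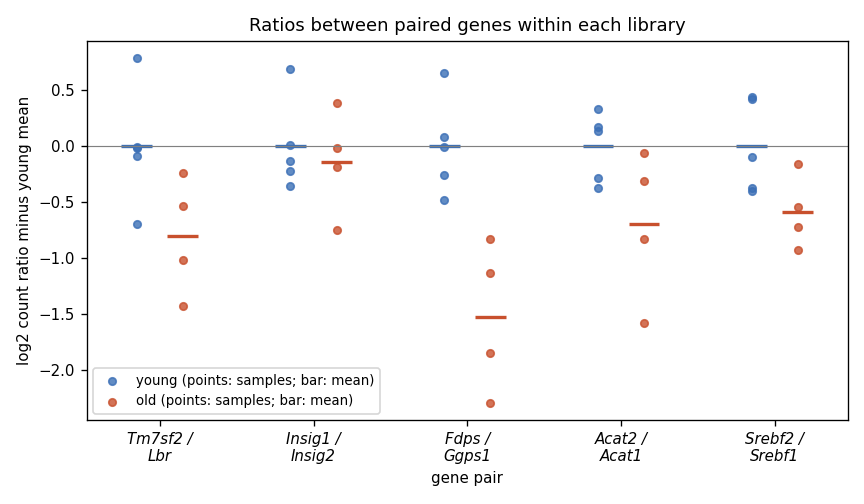
Log2 ratio of counts of 5 gene pairs within each library, shown relative to the mean of the young samples; points are samples and bars are group means. The old and young points are separate for FDPS over GGPS1 (difference -1.52) and overlap for the other 4 pairs.

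Other genes of sterol handling moved in both directions, and their counts stand against 4.41% of all tested genes that fell and 9.62% that rose. Of 14 tested genes of SREBP processing and sterol sensing, 1 fell (PGRMC1, which encodes a haem-binding membrane protein, -0.89 ± 0.23, adjusted p = 0.0306) and 1 rose (GRAMD1B, which encodes a carrier of plasma membrane cholesterol, 0.87 ± 0.19, adjusted p = 0.0156). SREBF1, the gene of the SREBP that favours fatty acid synthesis, stood at 216 ± 47.8 and 233 ± 47.7 CPM (0.11 ± 0.20, adjusted p = 0.755). Of 11 tested genes of LXR and cholesterol efflux, 1 rose and 0 fell. That gene was PLTP, which encodes a phospholipid transfer protein, at 35.6 to 84.8 CPM in young and 176 to 427 CPM in old skin (2.13 ± 0.30, adjusted p = 0.00221). Of 16 tested genes of other synthesis steps and of uptake, 4 fell, among them ACAT1 (-0.51 ± 0.15, adjusted p = 0.0475), and 3 rose. Among these were LRP1, which encodes a large endocytic receptor (1.29 ± 0.17, adjusted p = 0.00187), and CAV1, which encodes the coat protein of caveolae (1.04 ± 0.17, adjusted p = 0.0043).

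A list of 12 fatty acid genes under SREBPs held SREBF1 again, which is thus counted in 2 lists. Of the 12, 6 fell and 0 rose, against 4.41% of all tested genes that fell and 9.62% that rose. The median log2 fold change was -0.90, and 10 of the 12 were below 0. ACSS2, which encodes a synthetase of acetyl-CoA from acetate, stood at 86.6 to 140.1 CPM in young and 48.9 to 53.9 CPM in old skin (-0.99 ± 0.15, adjusted p = 0.00355). The others with the smallest adjusted p were ELOVL6 (-3.09 ± 0.33), SCD1 (-2.15 ± 0.28) and SCD (-1.25 ± 0.20). ELOVL6 was low in both groups, at 2.60 ± 0.52 CPM in young and 0.289 ± 0.136 CPM in old skin. Its counts in old replicates 1 to 4 were 18, 3, 10 and 6. Reads of SCD1 and SCD may have been split between them, since the genes are similar.

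Of the cell type markers that passed the test most were higher in old skin, while most sebaceous gland and keratinocyte markers did not pass. Summed levels of 12 sebaceous gland markers were 2200 to 4635 CPM in young skin and 2755, 1258, 2466 and 1440 CPM in old replicates 1 to 4. Old replicates 1 and 3 were thus within the young range and old replicates 2 and 4 below it, and the sterol genes' sum was likewise higher in old replicates 1 and 3 than in old replicates 2 and 4. Of 11 sebaceous markers tested, 2 fell (MC5R and ELOVL3), 0 rose and 9 did not pass, and GAL was the only 1 of the 12 at 0 in any sample. Of the 11, 7 had a log2 fold change below 0, with a median of -0.23 over the list. Summed levels of 14 keratinocyte markers were 31034 to 82504 CPM in young skin. In old replicates 1 to 4 they were 25481.5, 24010, 37016 and 26900 CPM. Of these 14 markers, 2 fell (KRT1 and KRT14), and 13 had a log2 fold change below 0. Their median was -0.43, against -0.05 over all genes tested. Summed levels of 13 adipocyte markers were 440.3 to 1053 and 3057 to 6269 CPM, and all 12 tested rose, while PNPLA2 was at 0 in every sample. All 13 macrophage markers tested rose too, from a sum of 174 to 354 CPM in young to 674 to 1378 CPM in old skin. Of 10 fibroblast markers, 6 rose, 0 fell and 4 did not pass, COL1A1 and COL3A1 among the latter, with a median log2 fold change of 0.83 and sums of 10123 to 14703 CPM in young and 13240.3 to 17204 CPM in old skin. None of the 8 endothelial markers passed. None of the 14 skeletal muscle or 15 hair follicle markers passed in either direction, and the muscle sum ranged from 18261 to 129833 CPM over the samples. In old replicates 1 to 4 the muscle sum was 34926, 107647, 18261 and 72431 CPM. It was thus lower in old replicates 1 and 3 than in old replicates 2 and 4, the reverse of the sterol genes' order.

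**Figure D5:**
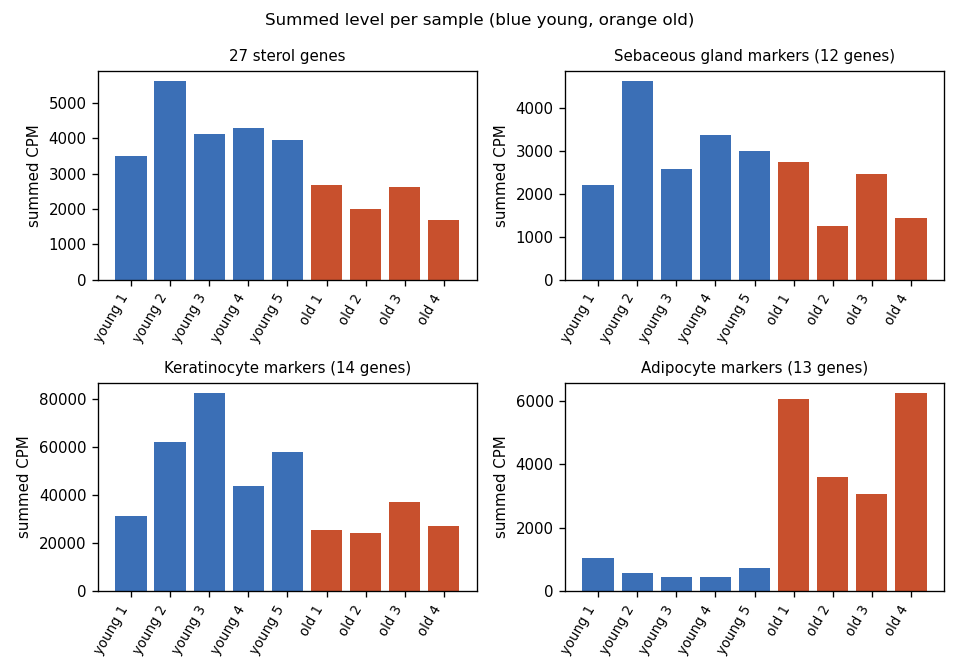
Summed CPM in each sample of the 27 sterol genes and of the sebaceous gland, keratinocyte and adipocyte marker lists; bars are single samples, blue for young and orange for old. Sterol genes sum to 3491 to 5614 CPM in young and 1686 to 2673 CPM in old samples. Old replicates 1 and 3 lie above old replicates 2 and 4 in the sterol and the sebaceous panel, but not in the keratinocyte and adipocyte panels.

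The fit was repeated with each marker score (mean log2 CPM of the list) as a covariate. With the sebaceous gland score, 8 members fell and 0 rose, with a median log2 fold change of -0.58. HSD17B7, which did not pass without a covariate, was among the 8. Over all genes tested, 397 fell and 1213 rose in this fit, against 659 and 1437 without a covariate. With the keratinocyte score, 2 members fell (LSS and MVD) and the members' median was -0.62, while 797 of all genes tested fell and 1335 rose. With the skeletal muscle score, 19 members fell and the members' median was -0.84, while 1029 of all genes tested fell and 1685 rose. With the adipocyte score, which did not overlap between the ages, 0 members passed, the median was -0.27 and 24 of 27 log2 fold changes stayed below 0. In that edgeR fit 0 genes of the whole table passed, and 512 genes that were higher and 157 that were lower had an unadjusted p under 0.05, 1 member among the latter. The part of cell mixture in the fall of the sterol genes was not tested beyond these fits.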

How the data were processed

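Per the labels' protocols, RNA came from the Qiagen RNeasy Mini column and libraries from the Illumina TruSeq v2 chemistry, which marks no strand. The authors deposited unnormalized counts, 1 value per gene symbol and sample. BWA is named in the submitters' processing notes, without a version. The sources used here name no build, annotation or counter, and overlapping or antisense genes can share reads. The samples are different animals, per the series' design text, and no 2 libraries of an age were alike within counting noise (smallest chi-square per degree of freedom 26.2).

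Columns were matched to samples by title. Genes were kept with filterByExpr (minimum count 10, minimum total 15), and the ages were compared with edgeR 4.0.16 in R 4.3.3 (TMM, glmQLFit and glmQLFTest, Benjamini-Hochberg over 14933 genes, threshold 0.05). SE was taken from the fold change and its F statistic. CPM is TMM-normalized. Ratios are log2 differences of counts with a pseudocount of 0.5. Alternatives were DESeq2 1.42.0, limma-voom (limma 3.58.1), other scalings and filters, thinned libraries, marker scores as covariates, a replicate block and leaving out each library. Halved columns and the old libraries by pairs were added after seeing the data. On simulated counts (14761 genes, 200 changed) the test recovered 37% of 2-fold and 89% of 4-fold changes, with 6 of 132 calls among unchanged genes.

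The members and lists were chosen with earlier results of these data known. All 27 members are named, and of each other pathway list up to 4 called genes with the smallest adjusted p, with SREBF1 and the partners in the ratios. Some genes that this rule gives, and 1 of the 6 ratios computed, are not reported here. Promoters were matched by symbol. Figures were drawn with matplotlib 3.10.9.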

Additional observations from a re-analysis of the deposited data

Results flagged for a closer look

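In 5 of 54 groups of values (27 members, 2 ages), 1 sample lay far from the others of its age by Dixon's 95% criterion, which flags about 1 group in 20 by chance. MVK was at 33.4 CPM in young replicate 5 and at 47.2 to 51.0 CPM in the other young samples, and at 41.7 CPM in old replicate 1 against 25.3 to 27.5 CPM in the other old ones. PMVK was at 71.9 CPM and FDFT1 at 269 CPM in young replicate 2, against 38.3 to 46.2 and 169 to 192 CPM in the other young samples. INSIG1 was at 80.9 CPM in young replicate 1 and at 36.9 to 45.8 CPM in the other young samples.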

How the results depend on the processing

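Of the 17 members that fell, MVD, IDI1, SQLE, LSS and CYP51 kept their call without each library in turn. Equal replicate numbers name different animals and pair no samples. With a replicate block, which leaves out young replicate 5 for want of an old sample of that number, 9 members fell. MVK, which did not pass with the main settings, was among the 9. Deviations of same-numbered samples correlated from -0.47 to 0.67. The number of members that fell was 17 with the main settings, 9 with library totals alone (which moved the median of all genes from -0.05 to 0.11), 2 at a threshold of 0.01, 8 with the sebaceous gland, 2 with the keratinocyte and 0 with the adipocyte score, 2 with old replicates 1 and 3 only, and 7 to 17 over single left-out libraries. The members' median was -0.27 with the adipocyte score and -0.44 with old replicates 1 and 3 only. DESeq2 called 20 members lower.

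Over all genes, 1437 rose and 659 fell. The number that fell was 312 with library totals alone, 1280 with DESeq2, 1029 with the muscle score, 397 with the sebaceous gland score, 437 with old replicates 2 and 4 only, 298 with old replicates 1 and 3 only, and 236 to 786 over left-out libraries. At a threshold of 0.01, 702 rose and 138 fell, and with the adipocyte score 0 passed in either direction.

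Signs turned only in values that did not pass. DHCR7 was at 0.015 with library totals alone, 0.60 with the adipocyte score, 0.26 with the keratinocyte score and 0.049 with old replicates 1 and 3 only. INSIG2 was at 0.13, 0.17 and 0.13 with library totals alone, the keratinocyte and the sebaceous gland score, at 0.29 with old replicates 1 and 3 only, and at -0.22 to 0.078 over left-out libraries. INSIG1 was at 0.080 and SREBF1 at -0.035 with old replicates 1 and 3 only, and INSIG1 ran from -0.46 to 0.059 over left-out libraries. The cause was not tested.

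Over left-out libraries the log2 ratio differences ran from -1.75 to -1.27 for FDPS to GGPS1 and from -0.31 to 0.063 for INSIG1 to INSIG2. The first lost its call in each, where fewer samples raise the smallest p of the exact permutation test (adjusted p 0.0536 to 0.0858). The same held with 2 old samples, where FDPS to GGPS1 differed by -1.71 (old replicates 2 and 4) and -1.34 (old replicates 1 and 3). Counting precision of old replicates 1 and 3 is that of 17.1 and 14.7 M counts.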

Other observations

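Genes of branches that leave the sterol route are counted here against the 4.41% of all tested genes that fell and the 9.62% that rose. Of 12 tested genes of the isoprenoid branch, which makes dolichol, ubiquinone side chains and protein prenyl groups, 3 fell and 0 rose. PDSS2, which encodes a subunit of the synthase of the ubiquinone side chain, stood at 31.5 ± 8.31 CPM (SD, n = 5) in young and 18.3 ± 2.46 CPM (n = 4) in old skin (log2 fold change -0.79 ± 0.19, SE, adjusted p = 0.0243). RABGGTA, which encodes a subunit of the Rab geranylgeranyl transferase, fell by 0.48 ± 0.12 (adjusted p = 0.0301) and DHDDS, which encodes a subunit of the dolichol-making prenyltransferase, by 0.59 ± 0.17 (adjusted p = 0.0475).

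Of 10 tested genes of sterol esters and oxysterols, 2 fell and 1 rose. SULT2B1, which encodes the enzyme that makes cholesterol sulfate in the epidermis, stood at 48.7 to 80.8 CPM in young and 16.9 to 41.2 CPM in old skin (-1.15 ± 0.26, adjusted p = 0.0166). CYP46A1, which encodes cholesterol 24-hydroxylase, was low in both groups, at 1.38 ± 0.356 and 0.619 ± 0.148 CPM (-1.14 ± 0.28, adjusted p = 0.0229). EPHX1, which encodes microsomal epoxide hydrolase, rose by 0.46 ± 0.13 (adjusted p = 0.0483).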
